A study of Mus musculus with 8 samples.

Results

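CD29lo luminal cells are the CD24hiCD29lo fraction of LIN-depleted mammary epithelial cells, separated by fluorescence-activated cell sorting. The response of these cells to the loss of C/EBPb was read from 4 of the 8 arrays of the series, the 2 arrays of C/EBPb knockout (KO) CD29lo cells against the 2 arrays of wildtype (WT) CD29lo cells, as the sample titles name them. The other 4 arrays hold CD24+CD29hi cells of both genotypes (CD29hi below). Cells came from WT glands and from germline C/EBPb-/- glands, in 2 paired sets with 10 mice per group, so every CD29lo array is a pool of cells from several mice. In a germline knockout the gene is missing in every cell of the mouse, stroma included. The sources used here do not give the age or strain of the mice, the purity of the sort or the deleted part of Cebpb. RNA was isolated with the Arcturus PicoPure kit, amplified with a NuGEN FFPE kit and hybridised as biotin-labelled cRNA to Affymetrix mouse arrays. For each of 18194 genes the single-gene probe set of highest mean in the 8 arrays was taken, and 14598 of them were bright enough to be tested. All values are log2 probe set values as deposited, given in the order replicate 1 and replicate 2, and levels of different genes are not set against each other.

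C/EBPb is a basic leucine zipper transcription factor that binds DNA as a dimer and takes part in the differentiation of the mammary epithelium, of adipocytes and of myeloid cells. In the luminal layer, alveolar cells make caseins and milk lipids under the control of prolactin and the transcription factor STAT5, while hormone-sensing cells carry the oestrogen and progesterone receptors. C/EBP factors are also known for driving acute phase genes, among them the serum amyloid A genes. The series set out to find what C/EBPb regulates in these sorted subpopulations.

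The sorted cells carried the luminal markers of the gate in both genotypes. The keratin gene Krt8 read 12.64 and 12.55 in WT and 12.62 and 12.65 in KO. Krt18, its partner keratin, read 13.01 in both WT arrays and 12.88 and 13.02 in KO. Epcam, an epithelial surface protein gene, lay between 12.71 and 12.85 in all 4 arrays, and Cd24a, which encodes the sorted antigen CD24, between 12.72 and 12.95. The median of 14 pan-luminal genes was 11.12 and 10.88 in WT and 11.01 and 11.12 in KO. The median of 20 basal genes was 7.86 and 7.85 in WT and 7.55 and 7.53 in KO. In the CD29hi arrays the same basal list had medians between 11.60 and 11.95.

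Stromal genes differed between replicates of 1 genotype more than between the genotypes. The median of 23 fibroblast genes was 8.12 and 10.57 in WT and 6.96 and 9.78 in KO, so that the arrays numbered 2 were the high ones in both genotypes. Col1a1, a fibrillar collagen gene, read 10.25 and 11.44 in WT and 7.29 and 11.41 in KO. Pdgfra, a fibroblast receptor gene, read 9.90 and 11.54 in WT and 7.70 and 11 in KO. All 23 fibroblast genes were above background in every CD29lo array, 22 had a log2 fold change below 0 (median -1.15), and in none were the WT and KO arrays free of overlap. Setting KO replicate 2 against WT replicate 1 turned that median to 1.21. Endothelial and pericyte genes had medians of 6.01 and 6.25 in WT and 5.50 and 6.49 in KO, with 5 of 17 lower in both KO arrays than in both WT arrays (29.4%, against 19.6% of all genes) and 1 higher (5.88%, against 14.7%). Tek, an angiopoietin receptor gene, was among them with 8.07 and 9.41 in WT and 5.84 and 7.14 in KO. Of 23 leukocyte genes only 15 were bright enough to be tested, of which 6 were higher in both KO arrays (40.0%, against 14.7% of all genes) and 1 was lower (6.67%, against 19.6%). Cd68, a macrophage gene, read 6.50 and 5.91 in WT and 7.62 and 7.39 in KO. The lower one, the antigen presentation gene H2-Ab1, read 5.20 and 7.05 in WT and 1.65 and 5.16 in KO, and Cd3e, a defining T cell gene, lay at or below 2.67 in all 4. The part of these cells in the results below was not tested beyond the values given with them. In such pooled RNA, fewer cells of a type and less RNA per cell cannot be told apart.

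**Figure D1:**
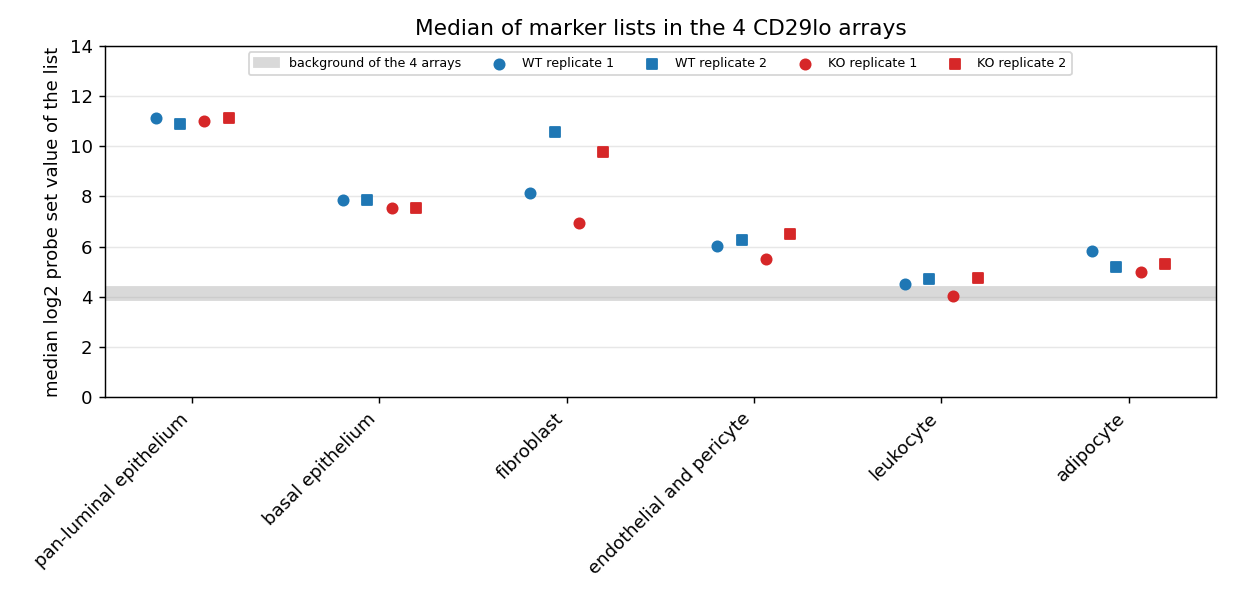
Median log2 probe set value (vertical axis) of 6 marker lists in the 4 CD29lo arrays, blue for WT and red for KO, circles for replicate 1 and squares for replicate 2, with the range of background in grey. The luminal medians coincide near 11, while the fibroblast medians run from 6.96 to 10.57 and both squares lie above both circles.

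KO replicate 1 stood apart in other respects too. Its background, taken as the 95th percentile of 27 bacterial control probe sets, was 4.41 against 3.85 to 4.16 in the other 3 CD29lo arrays, and 64.74% of its probe sets lay above background against 68.03% to 71.16%. Over all probe sets it correlated at 0.931 with KO replicate 2 and at 0.950 with WT replicate 1. KO replicate 2 also correlated more with the WT arrays (0.9436 and 0.9395) than with KO replicate 1. The correlations therefore do not single out KO replicate 1. The main genes below are therefore given in all 4 arrays.

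Across all genes the response was narrow at the test's threshold. Cebpb and Csn1s1 passed an adjusted p of 0.05, both lower in KO, which is 0.0137% of the 14598 genes, and no gene passed in the higher direction (0.0%). At an unadjusted p under 0.05, 353 genes were higher (2.42%) and 622 lower (4.26%), 975 in all where 730 would be expected by chance. The 2 arrays of KO lay above both arrays of WT in 2141 genes (14.7%) and below both in 2863 genes (19.6%), 34.3% of all genes together, and counts of non-overlapping list members below are to be read against these shares. A gap of more than 1 on the log2 scale separated the genotypes in 51 genes that were higher (0.349%) and 84 that were lower (0.575%). The log2 fold change was over 1 in 446 genes (3.06%) and under -1 in 812 (5.56%). The median log2 fold change over all genes was -0.06. In simulated data of this design, 3% of genes changed by 1 on the log2 scale were recovered, 36% at 2, 72% at 3 and 88% at 4, with independent genes. The p-values measure the spread between these arrays.

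Cebpb fell in the knockout luminal cells, and its remaining signal stayed above background. The brighter of its probe sets read 11.83 and 12.18 in WT and 9.23 and 8.89 in KO, a log2 fold change of -2.95 ± 0.274 (SE, limma adjusted p = 0.0271). The dimmer probe set read 3.60 and 4.61 in WT and 2.25 and 3.06 in KO, with 1 value of the 4 above background. Where they lie in the gene is not given in the sources used here, so the difference checks the labels only as far as the probes lie in that part.

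Of the calcium-sensitive casein genes, Csn1s1, Csn2 and Csn1s2a had a signal in WT and none above background in KO. Csn1s1, the alpha-s1-casein gene, read 7.27 and 7.82 in WT and 1.96 and 2.23 in KO. Both KO arrays were below background, which makes it at least 9.57-fold lower, with a log2 fold change of -5.45 ± 0.479 (limma adjusted p = 0.0271). Csn2, the beta-casein gene, read 5.84 and 7.44 in WT and 1.28 and 2.25 in KO, at least 5.11-fold lower, and did not pass (-4.88 ± 0.711, limma adjusted p = 0.16). Csn1s2a, the gene of another calcium-sensitive casein, read 6.84 and 9.99 in WT and 0.71 and 3.39 in KO, a difference of at least 17.5-fold (-6.37 ± 1.14, limma adjusted p = 0.307). All 3 genes were above background in both WT arrays and below it in both KO arrays. In all 3, replicate 2 read higher than replicate 1 in both genotypes, as the fibroblast genes did, although the KO values lay below background. With the mean of the fibroblast genes as a covariate, Csn1s1, Csn2 and Csn1s2a stood at -5.30, -4.45 and -5.26. The part of stromal cells was not tested.

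The difference did not extend to every milk gene. Csn1s2b, a further calcium-sensitive casein gene, overlapped between the genotypes with 5.37 and 4.96 in WT and 5.95 and 3.57 in KO. Csn3, which encodes the kappa-casein that stabilises micelles, overlapped as well with 11.92 and 11.83 in WT and 12.09 and 11.76 in KO. Wap, the whey acidic protein gene, read 5.15 and 4.81 in WT and 3.98 and 5.06 in KO. Xdh, whose product takes part in milk fat globule secretion, was lower in both KO arrays at 6.78 and 7.27 against 7.67 and 8.68. Muc1, an apical mucin gene, read 5.82 and 6.25 in WT and 4.85 and 4.12 in KO (-1.55 ± 0.615, limma adjusted p = 0.702). Of 15 milk protein genes tested, 1 passed, 7 were lower in both KO arrays (46.7%, against 19.6% of all genes) and 0 were higher. Their median log2 fold change was -0.41 against -0.06 for all genes. Csn1s2b, Csn3 and Wap are no named genes of the fixed rule and were chosen with their values known.

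Both caseins of smallest p have the palindrome TTCNNNGAA, the GAS element that STAT factors bind, within the 250 bases before their start, and 7.02% of all 32851 mouse windows of that length in the RefSeq table (assembly GRCm38.p6) hold it. The 2 windows are shown because these caseins share the element at a like distance from the start. The match is in capitals, 100 bases before the start of Csn1s1 (chr5:87665958-87666207, plus strand) and 93 bases before that of Csn2 (chr5:87699426-87699675, minus strand), and each run is written 5′ to 3′ along the gene.
Csn1s1: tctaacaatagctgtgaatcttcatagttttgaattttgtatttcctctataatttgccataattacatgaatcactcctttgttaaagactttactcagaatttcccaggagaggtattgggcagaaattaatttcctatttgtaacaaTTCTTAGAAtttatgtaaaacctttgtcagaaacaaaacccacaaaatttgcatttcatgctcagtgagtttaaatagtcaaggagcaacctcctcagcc
Csn2: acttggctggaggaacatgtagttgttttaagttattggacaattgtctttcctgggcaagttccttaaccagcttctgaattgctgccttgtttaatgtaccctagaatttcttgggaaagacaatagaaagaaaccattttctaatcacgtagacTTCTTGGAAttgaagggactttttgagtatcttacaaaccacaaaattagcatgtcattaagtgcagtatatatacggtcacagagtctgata
The C/EBP motif TTGCNNAA, searched on both strands and held by 9.56% of all windows, had no match in either, and neither motif had one in the windows of Csn1s2a, Wap or Lalba, the alpha-lactalbumin gene.

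Secreted defence and acute phase genes held both lower and higher members, the lower ones being more. Slpi, a secreted inhibitor of neutrophil elastase, read 8.99 and 8.60 in WT and 4.99 and 3.21 in KO, a difference that missed the threshold (-4.70 ± 0.513, limma adjusted p = 0.0573). KO replicate 2 was below background, and with values raised to the background the log2 fold change was -4.22. The lower WT array stood 3.61 above the higher KO array. Saa1, a serum amyloid A gene, read 7.12 and 8.38 in WT and 4.06 and 4.87 in KO (-3.29 ± 0.641, limma adjusted p = 0.334). Saa2 read 5.75 and 7.65 in WT and 3.18 and 4.07 in KO, at least 5.33-fold lower. Saa1 and Saa2 are near-identical copies, so their probe sets may share RNA and the pair is not 2 independent observations. Saa3, another member of the family and one that stromal cells also make, overlapped with 9.79 and 10.91 in WT and 5.42 and 9.92 in KO, in the order of the fibroblast genes. Saa1 and Saa2 had that order too. With the mean of the fibroblast genes as a covariate, Saa1, Saa2 and Saa3 stood at -2.83, -2.41 and -1.62. Defb1, a beta-defensin gene, read 7.0 and 8.19 in WT and 6.88 and 5.34 in KO. Reg3g, which encodes a bactericidal lectin, went the other way with 7.54 and 5.73 in WT and 9.14 and 9.18 in KO (2.53 ± 0.667, limma adjusted p = 0.598). Pigr, the receptor gene that carries antibodies across epithelia, read 5.43 and 5.48 in WT and 5.95 and 6.37 in KO. Of 30 tested members 12 were lower in both KO arrays (40.0%, against 19.6%) and 6 higher (20%, against 14.7%), the median was -0.38, and none passed.

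The C/EBP motif TTGCNNAA had a match before the start of Slpi, Saa1, Saa2 and Saa3, at 241, 182, 183 and 99 bases. Of the defence list only these genes, chosen with their values known, were looked up one by one. Others such as Defb1, Reg3g and Pigr were not, so the matches give no share of the list. Slpi and Saa1 are shown because they had the smallest p of the defence genes. The match is in capitals (on the minus strand relative to the gene in Slpi, where the motif reads TTGAGCAA along the gene), and the windows lie at chr2:164356508-164356757 for Slpi and chr7:46742981-46743230 for Saa1, both on the minus strand of GRCm38.p6.
Slpi: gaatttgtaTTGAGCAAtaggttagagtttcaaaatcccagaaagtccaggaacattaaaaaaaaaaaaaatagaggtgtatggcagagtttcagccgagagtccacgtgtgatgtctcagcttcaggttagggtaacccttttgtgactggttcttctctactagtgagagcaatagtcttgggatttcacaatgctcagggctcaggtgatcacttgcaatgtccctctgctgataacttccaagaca
Saa1: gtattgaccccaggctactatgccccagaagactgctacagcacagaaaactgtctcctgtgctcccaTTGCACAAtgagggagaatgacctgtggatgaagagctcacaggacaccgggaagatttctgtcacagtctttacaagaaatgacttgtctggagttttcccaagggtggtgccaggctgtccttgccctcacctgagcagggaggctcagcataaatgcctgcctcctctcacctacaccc
A match describes letters in these windows and was not tested as a binding site. Among the genes with the smallest p, the windows of Cdcp3, Ssc4d, Ctsj, Ctsr, Bex4, Golim4, Il17rc, Atp6v1c2, Them5 and Casp1 held neither motif. Rtn1, which was higher in KO, has several windows, of which 1 held a GAS match 170 bases before the start and the others neither motif.

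**Figure D2:**
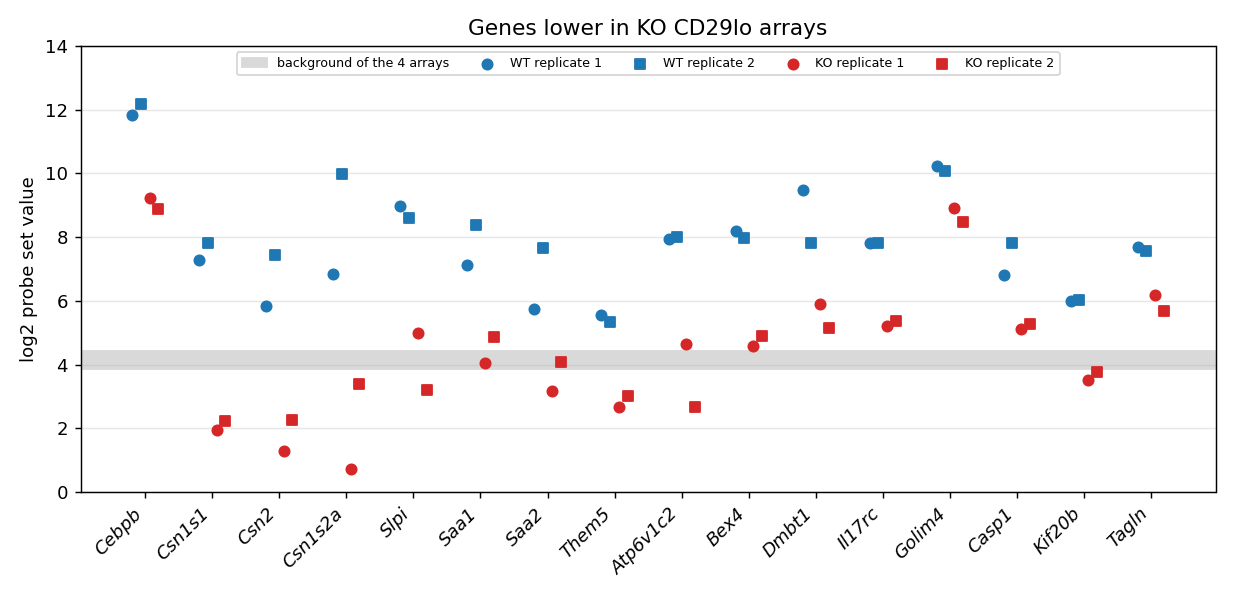
Log2 probe set values of 16 genes in the 4 CD29lo arrays, blue for WT, red for KO, circles for replicate 1 and squares for replicate 2, with the background range in grey. In every gene shown both red points lie below both blue points, and Csn1s1, Csn2 and Csn1s2a lie below the grey band in KO.

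Of the genes of lipid synthesis and storage, 14 of 30 were lower in both KO arrays, most of them by small amounts. Them5, an acyl-CoA thioesterase gene, had the smallest p of the list, at 5.54 and 5.34 in WT and 2.68 and 3.0 in KO, a difference of at least 2.23-fold (-2.60 ± 0.452, limma adjusted p = 0.307). Lpin1, a phosphatidate phosphatase gene, read 7.51 and 7.71 in WT and 6.57 and 6.59 in KO. Fasn, fatty acid synthase, read 7.32 and 7.97 in WT and 6.26 and 7.24 in KO, and Plin2, which coats lipid droplets, 12.12 and 12.60 in WT and 11.51 and 11.99 in KO. In both of these genes the KO arrays lay below the WT arrays, by a gap smaller than the spread within a genotype. Scd2, a stearoyl-CoA desaturase gene, was 0.49 lower and Dgat2, a triglyceride synthesis gene, 0.57 higher on the log2 scale. These 14 are 46.7% of the tested members, against 19.6% of all genes, while 2 were higher (6.67%, against 14.7%) and none passed, with a median of -0.25. Some of these genes are also made by adipocytes, whose marker list had medians of 5.82 and 5.17 in WT and 4.98 and 5.31 in KO.

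Genes with scavenger-receptor cysteine-rich domains held large differences in both directions. Cdcp3 had the smallest p of all genes higher in KO, with 6.39 and 6.68 in WT and 9.62 and 9.98 in KO, a 9.61-fold difference (3.27 ± 0.367, limma adjusted p = 0.0573). Ssc4d read 4.07 and 3.76 in WT and 7.54 and 6.78 in KO (3.25 ± 0.46, limma adjusted p = 0.145). Dmbt1, which encodes a secreted mucin-like scavenger protein that binds bacteria, was lower, with 9.49 and 7.83 in WT and 5.90 and 5.15 in KO (-3.14 ± 0.593, limma adjusted p = 0.334). Scara5, a ferritin receptor gene, read 9.74 and 9.46 in WT and 8.41 and 7.24 in KO. In all 4 genes the genotypes were separated by more than 1 log2 unit. Of the 12 tested members 2 were higher and 3 lower in both KO arrays, near the shares of all genes.

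Subunit genes of the proton pump (V-ATPase) were found among the non-overlapping genes in both directions, and none passed. Atp6v1c2, an isoform gene of the C subunit, read 7.93 and 7.99 in WT and 4.66 and 2.66 in KO (-4.30 ± 0.604, limma adjusted p = 0.145), the latter below background. Atp6v1b1, an isoform gene of the B subunit, read 8.62 and 8.16 in WT and 9.88 and 9.68 in KO, and Atp6v0d2, of the d subunit, 3.75 and 4.09 in WT and 5.04 and 6.19 in KO. Atp6v1e1, which most tissues make, read 10.85 and 11.02 in WT and 10.46 and 10.58 in KO, but another of its probe sets read 6.97 and 7.07 in WT and 8.15 and 7.92 in KO. Over 18 tested subunits the median was -0.10, with 3 higher (16.7%) and 4 lower (22.2%), near the shares of all genes.

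Further genes were lower by a wide margin without passing. Golim4, a Golgi membrane protein gene, read 10.22 and 10.08 in WT and 8.92 and 8.48 in KO (-1.45 ± 0.186, limma adjusted p = 0.126). Il17rc, a receptor subunit gene for interleukin 17, read 7.80 and 7.81 in WT and 5.22 and 5.36 in KO (-2.52 ± 0.342, limma adjusted p = 0.138), but its other probe set read 4.76 and 4.19 in WT and 5.20 and 5.64 in KO, so the probe sets disagree. Bex4 read 8.18 and 7.96 in WT and 4.58 and 4.88 in KO (-3.34 ± 0.556, limma adjusted p = 0.306). Both KO arrays of each gene named so far in this group lay at least 1 log2 unit below both WT arrays. Sema6d, a semaphorin gene, read 7.61 and 7.75 in WT and 6.16 and 5.78 in KO, while another of its probe sets was only 0.14 lower (5.96 and 6.11 in WT, 5.84 and 5.95 in KO). Slc35d3, a nucleotide sugar transporter family gene, read 6.77 and 6.52 in WT and 4.48 and 4.01 in KO. Phf10, a subunit gene of a chromatin remodelling complex, was a smaller but tight difference, at 10.70 and 10.60 in WT against 9.89 and 9.83 in KO. Serinc3, a membrane protein gene, read 11.93 and 12 in WT and 11.40 and 11.41 in KO, and all 6 of its probe sets were lower in both KO arrays.

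Among caspase and inflammasome genes, Casp1 and Il18 had the smallest p. Casp1, the protease that activates interleukin 18, read 6.80 and 7.83 in WT and 5.12 and 5.27 in KO (-2.12 ± 0.403, limma adjusted p = 0.334). Il18, which encodes its substrate, read 6.23 and 7.12 in WT and 5.30 and 4.6 in KO. Of 13 tested caspase and inflammasome genes 4 were lower in both KO arrays (30.8%) and 1 was higher (7.69%), with a median of -0.22, and none passed. Of 35 tested cytokine and chemokine genes 6 were higher (17.1%) and 4 lower (11.4%), near the shares of all genes. Lif, a cytokine gene of the interleukin 6 family, was the one of smallest p among them, with 8.74 and 8.68 in WT and 10.33 and 9.86 in KO (1.39 ± 0.303, limma adjusted p = 0.495). Osmr, a receptor gene of the same family, was 0.47 lower on the log2 scale. Il6 read 7.99 and 9.06 in WT and 5.83 and 7.58 in KO, and Cxcl10, an interferon-induced chemokine gene, 6.44 and 7.78 in WT and 9.47 and 8.16 in KO.

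On the higher side, several genes were at or near background in WT CD29lo arrays and had a clear signal in KO CD29lo arrays. Ctsr, a cathepsin gene best known from placenta, read 1.94 and 3.43 in WT and 8.14 and 7.77 in KO, at least 16.4-fold higher (5.27 ± 0.957, limma adjusted p = 0.331). Ctsj, a cathepsin of the same placental cluster, read 4.33 and 4.26 in WT and 7.77 and 6.63 in KO (2.91 ± 0.484, limma adjusted p = 0.306). Placental cathepsins are a family of close copies, so signal of 1 member on the probe set of another cannot be told apart. Sostdc1, a secreted BMP and Wnt antagonist gene, read 3.72 and 2.81 in WT and 8.27 and 6.96 in KO, at least 12.9-fold higher (4.35 ± 0.842, limma adjusted p = 0.334), while its second probe set overlapped with 5.44 and 5.92 in WT and 6.73 and 5.91 in KO. Kcnma1, a calcium-activated potassium channel gene, read 4.32 and 2.22 in WT and 7.08 and 6.54 in KO. Bbox1, a carnitine synthesis gene, read 3.97 and 4.66 in WT and 7.37 and 6.99 in KO. In WT CD29hi cells Sostdc1 read 6.83 and 9.55 and Kcnma1 5.88 and 6.98, while Ctsr, Ctsj and Bbox1 lay below background.

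Snorc, a proteoglycan gene known from cartilage, read 5.20 and 4.26 in WT and 8.81 and 8.08 in KO (3.72 ± 0.613, limma adjusted p = 0.306). Rtn1, a reticulon gene of the endoplasmic reticulum, read 6.32 and 6.18 in WT and 8.53 and 8.18 in KO (2.11 ± 0.282, limma adjusted p = 0.138). These 2 genes were well above background in both KO arrays. Pgf, a growth factor gene of the VEGF family, read 5.40 and 5.13 in WT and 8.23 and 7.08 in KO. Mia, a small secreted protein gene, read 4.99 and 5.86 in WT and 7.58 and 7.35 in KO. Cav1, the caveolin gene, differed least in size but with little spread, at 10.41 and 10.36 in WT against 11.28 and 11.20 in KO (0.86 ± 0.148, limma adjusted p = 0.306). In WT CD29hi cells Rtn1 read 9.24 and 9.80, Pgf 8.02 and 7.51 and Mia 7.41 and 7.78. Snorc read 3.18 and 4.27 there and Cav1 10.54 and 10.28. The part of basal cells in any of these higher genes was not tested.

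**Figure D3:**
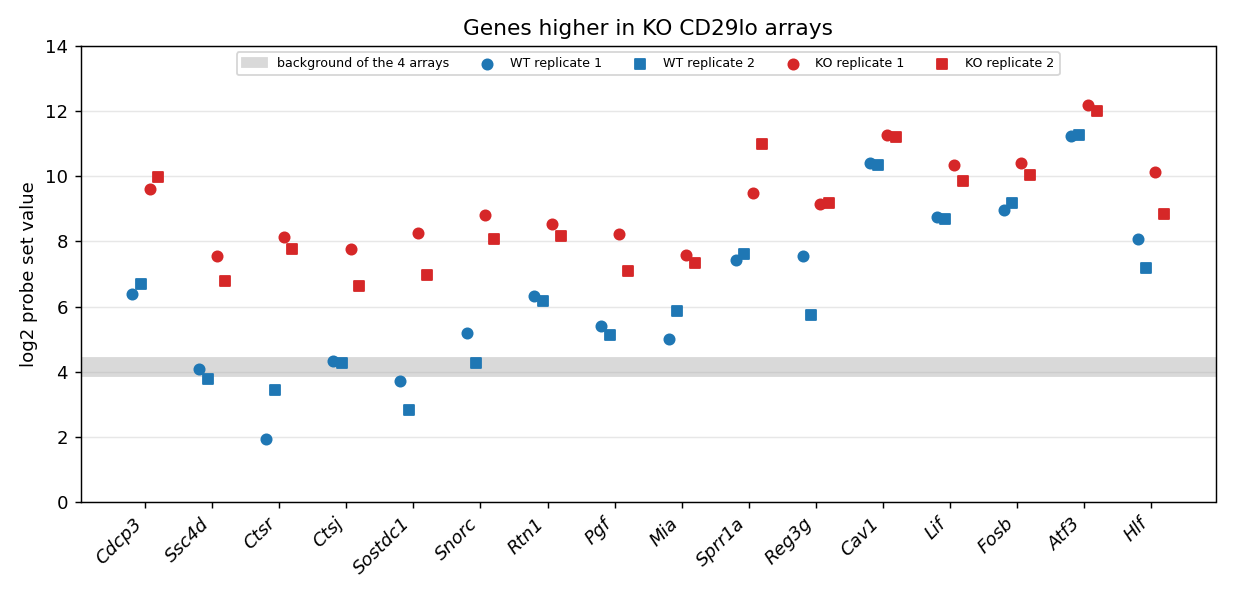
Log2 probe set values of 16 genes in the 4 CD29lo arrays, colours and symbols as for the lower genes, with the background range in grey. Both red points lie above both blue points in every gene shown, and the blue points of Ctsr and Sostdc1 lie below the grey band.

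Contractile and basal genes did not move as 1 group. Tagln, which encodes a smooth muscle actin-binding protein, read 7.69 and 7.56 in WT and 6.19 and 5.67 in KO (-1.70 ± 0.297, limma adjusted p = 0.306). Acta2, smooth muscle actin, read 8.22 and 8.44 in WT and 7.43 and 7.55 in KO. Fblim1, a filamin-binding protein gene, read 7.68 and 7.58 in WT and 6.05 and 5.99 in KO. The 2 arrays of a genotype lay close together in these genes. The part of fibroblasts, pericytes or basal cells in these values was not tested. Krt5, a basal keratin gene, was higher instead, at 7.13 and 6.75 in WT and 7.66 and 7.40 in KO. Of 20 tested basal genes 4 were higher and 3 lower, with a median of -0.07. Among 16 tested keratinocyte genes 4 were higher (25%, against 14.7%) and 1 lower (6.25%), with a median of 0.39. Sprr1a, a cornified envelope protein gene, read 7.43 and 7.61 in WT and 9.48 and 10.98 in KO (2.71 ± 0.515, limma adjusted p = 0.334). Krt15, a stratified epithelium keratin gene, read 4.95 and 4.69 in WT and 5.73 and 6.07 in KO, and Ivl, involucrin, was 0.73 higher on the log2 scale.

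Immediate early genes, which cells switch on within minutes of a stimulus and also during tissue dissociation, were higher with no exception among those free of overlap. Fosb read 8.97 and 9.19 in WT and 10.40 and 10.05 in KO (1.15 ± 0.262, limma adjusted p = 0.495). Fos read 10.99 and 11.17 in WT and 11.88 and 11.60 in KO, and Atf3, a stress-induced factor gene, 11.24 and 11.28 in WT and 12.20 and 11.99 in KO. Egr3, an early growth response factor gene, was 1.30 and Nr4a1, an orphan nuclear receptor gene, 1.09 higher on the log2 scale, while Jun was 0.19 and Klf4 0.36 higher. Of 28 tested genes 12 were higher in both KO arrays (42.9%, against 14.7%), 0 were lower and 26 had a log2 fold change above 0. The list's median of 0.18 was 0.39 between the arrays numbered 1 and 0.05 between those numbered 2, and none of the genes passed.

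The other C/EBP genes overlapped between the genotypes. Cebpa read 9.12 and 9.88 in WT and 9.63 and 9.77 in KO, Cebpd 10.72 and 10.77 in WT and 11.15 and 10.73 in KO, and Cebpg 11.74 and 11.40 in WT and 11.66 and 11.38 in KO. The related PAR leucine zipper genes, whose products act in the circadian output, were higher. Hlf read 8.07 and 7.18 in WT and 10.13 and 8.83 in KO (1.86 ± 0.466, limma adjusted p = 0.548). Dbp read 10.04 and 9.80 in WT and 10.48 and 10.76 in KO, and Tef was 0.47 higher on the log2 scale. Nfil3, a repressor gene of the same targets, was 0.36 higher and Atf5, another leucine zipper gene, 0.49 lower. Among 11 tested genes of this list, Cebpb passed, 4 were higher in both KO arrays (36.4%) and 2 lower (18.2%).

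Genes of luminal identity showed no common direction. The oestrogen receptor gene Esr1 read 10.62 and 10.50 in WT and 10.54 and 10.99 in KO, and the progesterone receptor gene Pgr 11.42 and 11.07 in WT and 10.67 and 11.66 in KO. Foxa1, a pioneer factor gene of hormone-sensing cells, read 9.82 and 9.74 in WT and 10.17 and 10.22 in KO, and Myb, a factor gene of the same cells, was 0.72 higher on the log2 scale. Of 19 tested hormone-sensing genes 4 were higher (21.1%) and 1 lower (5.26%), with a median of 0.09. Elf5, the factor of alveolar progenitors, overlapped with 10.06 and 9.77 in WT and 10.66 and 9.40 in KO. Of 19 tested progenitor and alveolar genes 3 were higher and 2 lower, among them Gabrp, a GABA receptor subunit gene, with 7.39 and 7.71 in WT and 9.0 and 8.40 in KO, and Cyp24a1, which degrades vitamin D, with 5.26 and 5.90 in WT and 4.64 and 4.57 in KO. Among pan-luminal genes Elf3, an epithelial ETS factor gene, was 0.67 and Cldn4, a claudin gene, 0.57 higher. None of these genes passed.

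Signalling pathways of the gland were spread in the same way. In the prolactin and STAT5 axis, 4 of 17 tested genes were higher (23.5%) and 0 lower. Socs2, a feedback inhibitor gene induced by STAT5, read 7.27 and 8.17 in WT and 8.86 and 8.70 in KO, and Socs3 9.14 and 9.29 in WT and 9.64 and 10.19 in KO. Neither passed. Of 27 tested Notch genes 7 were higher (25.9%) and 5 lower (18.5%). The receptor gene Notch2 read 11.66 and 11.57 in WT and 11.30 and 11.23 in KO, and the sheddase gene Adam17 was 0.59 lower on the log2 scale. The ligand gene Dll4 read 3.32 and 1.49 in WT and 4.22 and 4.90 in KO, with only KO replicate 2 above background. The target genes Hes1 and Hey2 were 1.18 and 1.26 higher on the log2 scale. Hey2 was below background in both WT arrays. Of 37 tested Wnt genes 2 were higher (5.41%) and 6 lower (16.2%). The ligand gene Wnt7b read 6.96 and 6.52 in WT and 8.32 and 8.71 in KO, and the receptor gene Fzd1 9.09 and 9.80 in WT and 8.07 and 8.71 in KO. In the TGF-beta and BMP list, 5 of 26 were higher and 5 lower. Id1, a BMP target gene, read 4.62 and 4.90 in WT and 6.30 and 5.43 in KO, and the ligand gene Bmp2 4.85 and 5.95 in WT and 3.91 and 4.51 in KO. Of 14 tested EGF ligand and receptor genes 3 were higher and 3 lower.

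Cell cycle genes were lower more often than higher. Kif20b, a mitotic kinesin gene, read 6.0 and 6.01 in WT and 3.53 and 3.76 in KO, a difference of at least 3.29-fold (-2.36 ± 0.452, limma adjusted p = 0.334), but its second probe set overlapped with 3.12 and 4.66 in WT and 4.54 and 4.98 in KO. Mcm7, a subunit gene of the replicative helicase, read 10.40 and 10.11 in WT and 9.15 and 9.32 in KO. Cdca8, of the chromosomal passenger complex, read 8.81 and 9.34 in WT and 6.96 and 8.09 in KO, and the cyclin gene Ccnb2 6.59 and 6.16 in WT and 4.21 and 5.80 in KO. Cdk1, the kinase of mitotic entry, went the other way with 5.96 and 6.05 in WT and 6.77 and 7.78 in KO. Of 38 tested genes 16 were lower (42.1%, against 19.6%) and 6 higher (15.8%, against 14.7%), with a median of -0.33. Among 21 G1 regulators 6 were higher (28.6%) and 3 lower (14.3%), the kinase gene Cdk6 being 0.84 higher and the factor gene E2f3 0.83 lower. All 23 unfolded protein response genes overlapped between the genotypes. Of 25 tested interferon and MHC class I genes 1 was higher, Usp18 (6.68 and 7.21 in WT, 7.59 and 8.24 in KO), and 3 were lower.

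**Figure D4:**
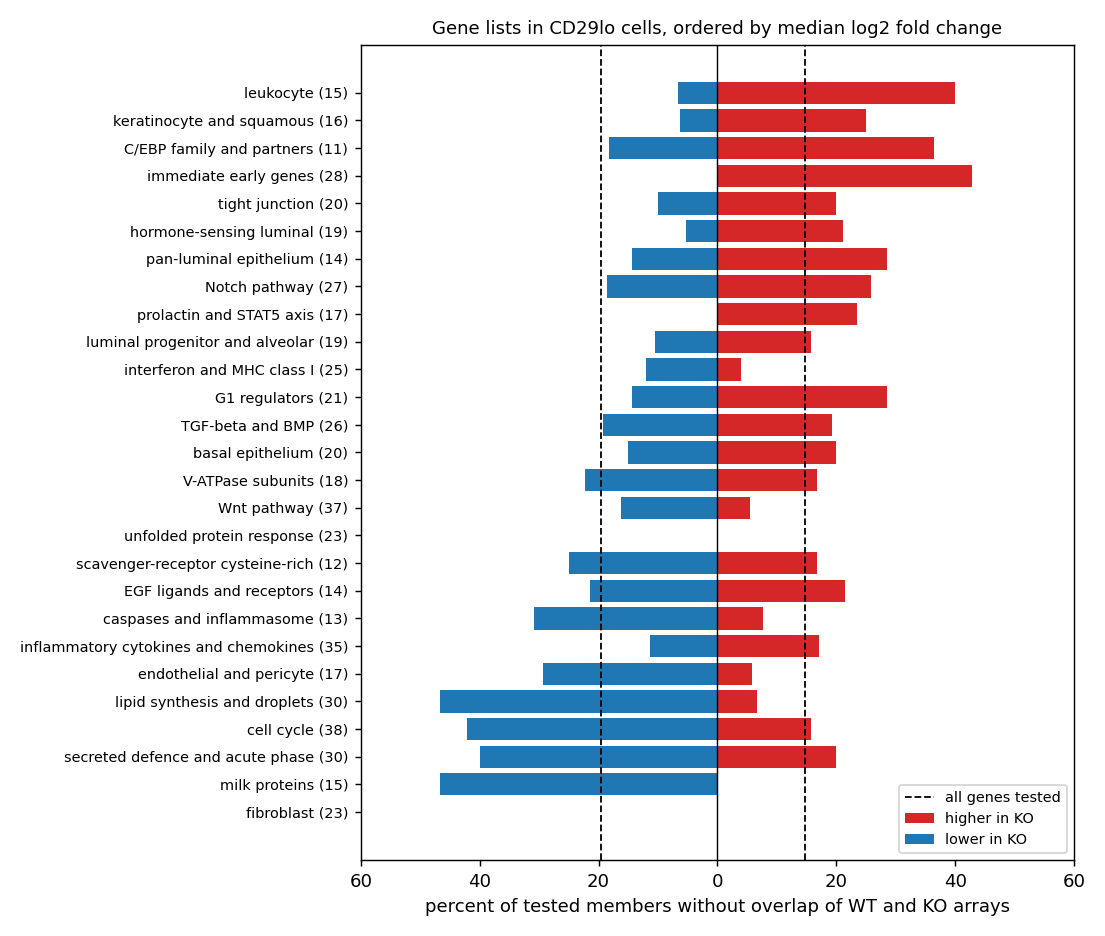
Percent of tested members (horizontal axis) whose 2 KO arrays both lie above (red, right) or both below (blue, left) the 2 WT arrays, for the lists with at least 10 tested members, the number of which stands in brackets. The dashed lines mark the shares of all 14598 genes, 14.7% and 19.6%, and the fibroblast and unfolded protein response lists have no bar.

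Among other genes named in the text, another probe set above background overlapped between the genotypes for Lpin1, Scara5, Cdca8, Egr3, Osmr and Nfatc2. The log2 fold changes of these probe sets were -0.06, 0.17, -0.19, 0.20, 0.14 and -0.14, and 3 of the other probe sets of Socs2 overlapped as well. Another probe set of Acta2, Cdk6, E2f3, Myb and Wnt7b overlapped too, in the direction of the chosen one. Its log2 fold changes were -0.665, 0.74, -0.445, 0.7 and 0.985. The pair of called genes depended on single arrays, since each group holds 2. Cebpb and Csn1s1 both reached an adjusted p of 0.494 when WT CD29lo replicate 2 was left out and 0.243 when replicate 1 was. Without KO CD29lo replicate 1 and replicate 2 both stood at 0.0784 and 0.0741. The WT CD29hi arrays, which enter only through the shared estimate of spread, also ended both calls (0.145 and 0.144 for Cebpb, 0.135 and 0.141 for Csn1s1, without replicate 1 and 2), and without KO CD29hi replicate 1 Csn1s1 stood at 0.0517 (limma in every case). KO replicate 2 against WT replicate 1, which turns the fibroblast difference around, gave -2.94 for Cebpb, -5.04 for Csn1s1 and -5.78 for Slpi. It gave -5.27 for Atp6v1c2, -3.30 for Bex4, 3.59 for Cdcp3 and 2.71 for Ssc4d. Other differences were smaller there, with -3.45 for Csn1s2a, -3.59 for Csn2, -2.25 for Saa1 and -1.68 for Saa2. Hlf stood at 0.76, Tek at -0.93, Il6 at -0.41 and Fasn at -0.08. All these genes are free of overlap, so any KO array against any WT array keeps their direction. The pair therefore cannot test the part of stromal cells. With the mean of the fibroblast genes as a covariate, 8 genes passed in place of 2, namely Cebpb, Csn1s1, Csn1s2a, Slpi, Atp6v1c2 and Golim4 as lower and Cdcp3 and Sprr1a as higher (limma). With values below background raised to it, 10 genes passed, namely Cebpb, Csn1s1, Slpi, Atp6v1c2, Golim4 and Slc35d3 as lower and Cdcp3, Ctsr, Ssc4d and Bbox1 as higher. Raising dim values also narrows the spread within a group, which by itself can add calls.

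The CD29hi cells share no arrays with this comparison and allow a test of the difference between the gates. The titles do not say which CD29hi and CD29lo arrays share mice, and the test treats all arrays as independent. No gene passed that test (0.0% of 14598, smallest limma adjusted p = 0.95), and 722 had an unadjusted p under 0.05 (4.95%). Cebpb was lower by a like amount in both gates, with a difference of 0.17 ± 0.388 between them. Slpi was lower in both KO CD29hi arrays as well, at 8.90 and 8.65 against 12 and 11.81 in WT CD29hi, and Csn1s1 and Csn2 were above background in both WT CD29hi arrays and below it in both KO CD29hi arrays. Bex4 had a log2 fold change of 0.45 in CD29hi, Sostdc1 -1.21, Ssc4d 0.37, Il17rc -0.47 and Tagln -0.24, where CD29lo had -3.34, 4.35, 3.25, -2.52 and -1.70. Their unadjusted interaction p were 0.0012, 0.00145, 0.00202, 0.00267 and 0.00782 (limma), none of which held after adjustment. Them5 was below background in all 4 KO arrays, so its difference between the gates has no exact size. Whether any response belongs to the luminal gate alone is therefore not shown by these arrays.

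**Figure D5:**
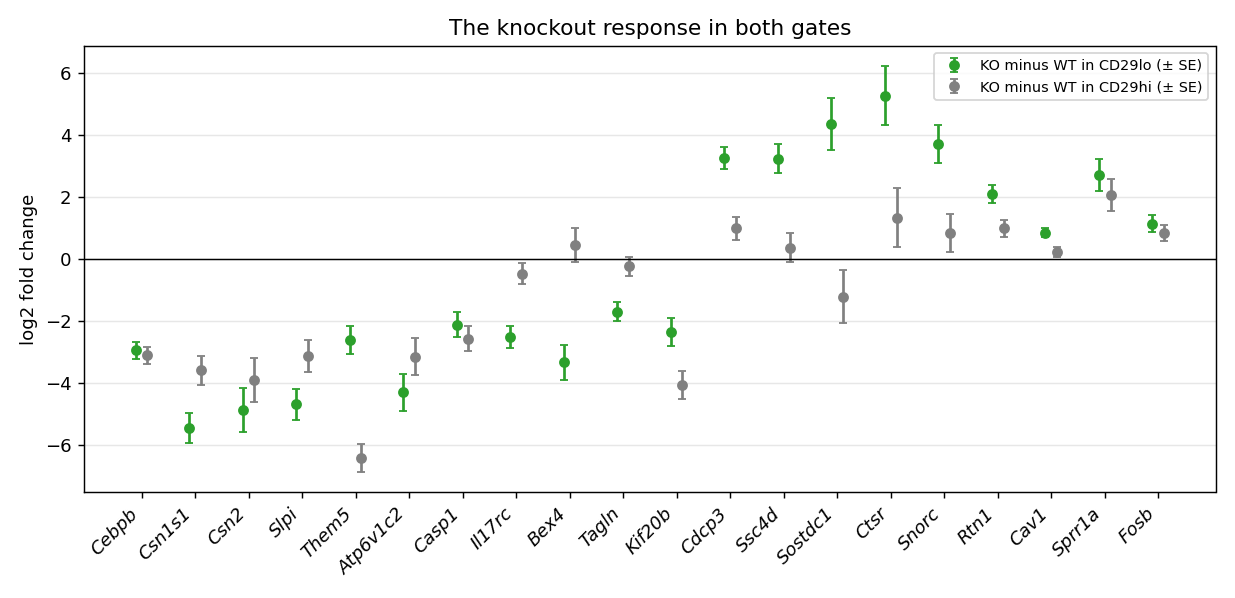
Log2 fold change of KO against WT (vertical axis) with its standard error for 20 genes, in green for CD29lo and grey for CD29hi. Cebpb lies near -3 in both gates, and the green points of Cdcp3, Ssc4d, Sostdc1, Ctsr and Snorc lie above 3 while their grey points lie below 1.5.

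Genes that lie next to Cebpb on chromosome 2, in the RefSeq order, were counted as a group of their own. Among the 10 tested genes on each side, 5 of 20 were higher in both KO arrays (25%, against 14.7%), 1 was lower (5.0%) and none passed. Pard6b, a cell polarity gene, read 10.22 and 9.38 in WT and 10.62 and 10.41 in KO. Nfatc2, a calcium-regulated factor gene, read 6.56 and 6.75 in WT and 7.88 and 7.53 in KO, and Tshz2, the lower one, was below background in all but 1 array. Over 100 tested genes on each side that the table places on the chromosome (189 in all) the shares were 15.9% higher and 15.3% lower. Slpi and Serinc3 lie on the same chromosome, 50 and 67 tested genes away.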

How the data were processed

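RNA of 8 sorted samples in 4 groups of 2, grouped by their titles, was read on Affymetrix mouse arrays. The deposited values are log2 probe set values with a floor at 0. Their scale was inferred from their range, and how the authors normalized them is not given in the sources used here. They were not normalized again, and the number of arrays limits the precision. Of 45101 probe sets 34958 carry 1 gene in the platform annotation of 2016, 932 several and 9211 none. RefSeq (GRCm38.p6) gave names (34754 matched by gene ID), gene order and promoters. Genes whose mean was under 3.51, the 25th percentile over probe sets, were left untested. Limma 3.58.1 in R 4.3.3 (lmFit on 4 groups, eBayes with trend, 4 residual and 4.31 prior degrees of freedom) gave two-sided p-values, adjusted by Benjamini-Hochberg over 14598 genes, with a threshold of 0.05. The fit was tested on simulated data. For a group with both arrays not above background the fold is a lower bound, from means of log2 values, against that background.

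The comparison, the 30 gene lists (672 genes, 577 tested) and all rules were chosen with earlier results of these data known. Named genes were Cebpb, genes past the threshold, the 15 of smallest p and 10 of largest gap in each direction, up to 5 members per list and 10 neighbours on each side of Cebpb. Csn1s2b, Csn3, Wap, Saa3, Pigr, Fasn, Scd2, Dgat2, Jun, Klf4, Esr1, Pgr, Foxa1, Elf5, Hey2, Cdk1, Tef, Cebpa, Cebpd, Cebpg and markers of the sorted cells, stroma and leukocytes fall outside this rule.

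Alternatives were quantile normalization, all genes unfiltered, a stricter filter (50th percentile), the mean of all probe sets, every probe set, a variance model with no trend, array weights, CD29lo arrays only, the replicate number as a block, values raised to background, the fibroblast mean as covariate, single arrays set against each other, and leaving out each array, where a lone array takes the spread of the other groups.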

Additional observations from a re-analysis of the deposited data

Results flagged for a closer look

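In a test of every probe set, 33830 in all, 4 passed, among them the chosen probe sets of Cebpb and Csn1s1 and 2 that were not the chosen probe set of a gene. A probe set that the annotation does not give to a single gene, and that is therefore not named, read 10.91 and 11.23 in WT and 5.40 and 5.04 in KO, a log2 fold change of -5.85 (limma adjusted p = 0.0225). A second probe set of Serinc3 read 11.04 and 10.76 in WT and 8.67 and 8.60 in KO, a log2 fold change of -2.27 (limma adjusted p = 0.0225), against -0.56 for the brighter Serinc3 probe set.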

How the results depend on the processing

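Of 111 genes examined under up to 23 settings, 102 kept their direction under every one and 9 did not. This count is in large part fixed beforehand and is no measure of robustness. Genes free of overlap cannot turn when arrays are left out or set singly against each other. The filters, the variance model and leaving out CD29hi arrays do not change the log2 fold change in CD29lo. The count of genes called in CD29lo, 2 as reported, was 1 with the filter at the 50th percentile (Cebpb) and 4 with every probe set tested. It was 3 with quantile normalization (Cdcp3 added) and 3 with array weights (Slpi added). The mean of all probe sets also gave 3 (Csn1s1, Slpi and Cdcp3, with Cebpb at a limma adjusted p of 0.241). The fit by eBayes without a trend gave 1 (Csn1s1) and only the 4 CD29lo arrays gave 0. Values raised to the background gave 10 and the fibroblast covariate 8. With single CD29lo arrays set against each other, neither Cebpb nor Csn1s1 was called. Both calls were also lost when a WT array of either gate or a KO CD29lo array was left out. Without KO CD29hi replicate 1 the call of Cebpb held and that of Csn1s1 did not. Without KO CD29hi replicate 2 both held. The count for the difference between the gates stayed 0 in every setting run for it. The replicate number as a block gave 3 genes (Slpi beside Cebpb and Csn1s1), and 9 with only the 4 CD29lo arrays, a setting chosen after seeing the data. Deviations of same-numbered arrays correlated at 0.321 in CD29lo and 0.006 in CD29hi, and the labels do not say that the number marks the paired set. Directions that turned were all of genes with overlapping arrays, the only ones that single arrays can turn. With KO replicate 2 against WT replicate 1, the log2 fold change was -0.16 for Csn3, 0.13 for Saa3, 0.24 for Pgr and -0.66 for Elf5. Between the arrays numbered 2 alone it was -0.07 for Csn3, 0.25 for Wap, 0.59 for Pgr, -0.37 for Elf5, -0.11 for Cebpa and -0.04 for Cebpd, and between those numbered 1 alone -0.08 for Esr1. The mean of all probe sets gave 0.11 for Pgr, -0.085 for Elf5 and 0.22 for Cebpg, the fibroblast covariate 0.084 for Pgr and -0.087 for Elf5, and quantile normalization 0.007 for Cebpg. Leaving out each array in turn gave -0.12 to 0.22 for Csn3, -1.0 to 0.08 for Wap, -0.02 to 0.43 for Esr1, -0.58 to 0.42 for Pgr, -0.52 to 0.75 for Elf5, -0.18 to 0.58 for Cebpa, -0.015 to 0.41 for Cebpd and -0.22 to 0.12 for Cebpg. The cause was not tested. The background limits what can be read from dim probe sets.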
